A study of Mus musculus with 11 samples.

Results

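The genes described here are 40 mouse genes of the lysosome, measured in 3T3-L1 adipocytes: 9 cathepsins, 12 glycosidases, 5 sulfatases, 6 enzymes or activators of lipid breakdown, 6 membrane proteins, the peptidase Tpp1 and the transcription factor Tfeb. They were taken by symbol from a list, and each is represented by its brightest probe set among those annotated with that symbol alone. Of the 40, 39 had such a probe set and 38 were bright enough to test, of 15623 genes tested and 18193 with a probe set. The cathepsin Ctss was too dim, and Cd63 was not analysed here.

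Cells of 3T3-L1, a mouse preadipocyte line that is turned into adipocytes in culture, were hybridised to 11 Affymetrix arrays. CI cells (n = 2), the model of hyperinsulinaemia, received 10 nM insulin in repeated additions on 1 day and the next morning. TNF cells (n = 3), the model of low-grade inflammation, were kept for 4 days with TNF-alpha at 2 ng/ml, and DEX cells (n = 3) received 20 nM dexamethasone, a synthetic glucocorticoid, for 8 days. Control cells (n = 3) are labelled as untreated, although 0.01% ethanol is named as the control for dexamethasone. The treatments were timed so that all cells were taken on the same day after differentiation. The treatments thus differ in agent, dose and duration at once. Nothing in the labels says that the arrays of a group stem from different cultures, and the p-values therefore reflect the spread among these samples alone, some or all of which may be technical.

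Lysosomes are acidic compartments in which proteases, glycosidases, sulfatases and lipases break down material delivered by endocytosis and autophagy. Most of the soluble enzymes are tagged with mannose phosphate in the Golgi and carried to the lysosome by receptors, and a proton pump, the V-ATPase, keeps the lumen acidic. The transcription factor TFEB and its relatives TFE3 and MITF bind E-box sequences with the core CACGTG, and many lysosomal genes are known to be their targets. In adipocytes, lysosomal acid lipase and the cathepsins take part in the turnover of lipid droplets and of proteins.

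The arrays were alike in overall level, with median intensities between 124.5 and 129.5, and arrays of 1 group correlated at a Spearman coefficient of 0.996 to 0.9977. The adipocyte genes Adipoq and Fabp4 averaged 21547 and 22180 in CI, 20890 and 21818 in TNF, 21645 and 22995 in DEX and 22828 and 22633 in control arrays, so that both markers of the labelled cell type were bright in every group. Of the 9 adipocyte genes tested, which include these, 2 rose in CI (22.2%, against 8.38% of all tested genes). In TNF all 9 had changes below 0 and 4 fell past the threshold (44.4%, against 11.2%). In DEX 1 rose (11.1%, against 14.0%) and 3 fell (33.3%, against 13.6%). All 18 probe sets of the bacterial and phage hybridisation spikes were lower in CI than in control, with a median log2 difference of -0.23. In TNF 18 of the 18 were lower, with a median of -0.07, and in DEX 17, with a median of -0.05. By array, the median spike deviation from the mean of all arrays was -0.07 in CI replicate 1, -0.26 in CI replicate 2, -0.20 in TNF replicate 3, -0.13 in DEX replicate 2 and between 0.03 and 0.13 in the other 7 arrays. The 3' to 5' intensity ratio of actin was 1.82 in CI replicate 1 and 1.43 in CI replicate 2, the highest and lowest of the 11 arrays. The part of these differences in the results on lysosomal genes was not tested.

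Promoter windows of 300 bases, from 250 before the transcript start to 50 after it, were taken from RefSeq on GRCm38.p6 for 36 of the 40 genes. They are shown because the E-box core CACGTG, which reads the same on both strands, is the element that TFEB is known to bind. CACGTG was present in the windows of 12 of 36 genes (33.3%), against 8.09% of all 27025 genes with a window and 10.7% of the 12481 tested genes with one. The longer TCACGTGA, which contains it and is also its own reverse complement, was in 4 of 36 (11.1%), against 1.12% of all genes and 1.82% of tested genes. The 6 windows printed are those of 4 genes with large changes and a match (Naglu, Gla, Glb1 and Ctsa), of Lamp1, which has 4 matches and passed in no comparison with control, and of Manba, which has none, fell in CI and rose in TNF and DEX. Other genes with large changes have no match in their windows, among them Ctsk (0.56 in TNF), Ids (-0.51 in CI) and Arsb (-0.46 in DEX). Each printed window is written 5' to 3' on the strand of the gene, with CACGTG in capitals.
Naglu: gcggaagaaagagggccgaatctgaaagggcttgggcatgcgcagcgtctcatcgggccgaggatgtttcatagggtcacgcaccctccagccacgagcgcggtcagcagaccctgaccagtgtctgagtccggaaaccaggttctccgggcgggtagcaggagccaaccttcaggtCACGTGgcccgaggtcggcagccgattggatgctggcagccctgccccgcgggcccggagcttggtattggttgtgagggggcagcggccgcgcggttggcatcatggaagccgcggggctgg
Gla: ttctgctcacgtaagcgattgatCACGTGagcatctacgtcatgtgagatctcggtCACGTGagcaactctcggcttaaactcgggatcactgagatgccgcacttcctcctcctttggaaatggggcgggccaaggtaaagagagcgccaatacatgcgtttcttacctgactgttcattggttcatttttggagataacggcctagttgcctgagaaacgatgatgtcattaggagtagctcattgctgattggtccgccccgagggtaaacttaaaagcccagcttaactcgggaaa
Glb1: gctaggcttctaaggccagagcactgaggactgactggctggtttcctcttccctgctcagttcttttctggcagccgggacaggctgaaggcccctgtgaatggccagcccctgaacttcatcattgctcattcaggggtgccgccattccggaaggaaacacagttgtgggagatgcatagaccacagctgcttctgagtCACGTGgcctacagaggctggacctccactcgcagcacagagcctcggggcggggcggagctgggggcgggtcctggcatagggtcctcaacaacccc
Ctsa: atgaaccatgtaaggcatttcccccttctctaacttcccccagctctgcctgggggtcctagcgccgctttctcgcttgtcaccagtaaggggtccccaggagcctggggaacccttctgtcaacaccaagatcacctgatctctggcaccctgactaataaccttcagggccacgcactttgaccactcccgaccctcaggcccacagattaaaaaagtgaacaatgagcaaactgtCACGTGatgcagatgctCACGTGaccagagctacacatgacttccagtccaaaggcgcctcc
Lamp1: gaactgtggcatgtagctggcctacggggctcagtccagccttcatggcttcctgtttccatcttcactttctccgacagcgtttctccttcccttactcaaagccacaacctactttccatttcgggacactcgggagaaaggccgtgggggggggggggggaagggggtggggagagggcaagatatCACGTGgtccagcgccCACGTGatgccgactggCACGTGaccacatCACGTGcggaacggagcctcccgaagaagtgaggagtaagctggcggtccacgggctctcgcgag
Manba: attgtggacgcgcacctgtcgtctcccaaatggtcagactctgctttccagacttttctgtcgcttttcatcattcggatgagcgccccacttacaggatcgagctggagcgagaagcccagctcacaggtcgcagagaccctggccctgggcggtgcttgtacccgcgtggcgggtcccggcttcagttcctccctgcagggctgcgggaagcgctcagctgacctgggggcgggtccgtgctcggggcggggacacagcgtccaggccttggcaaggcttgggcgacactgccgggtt

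The Naglu window lies at chr11:101069844-101070143 on the plus strand, with 1 match that starts at position -73 from the transcript start. That of Gla (chrX:134600956-134601255, minus strand) has matches at -227 and -194, and that of Glb1 (chr9:114400828-114401127, plus strand) has 1 at -48. Ctsa has a pair of annotated starts. The window of the downstream one (chr2:164833523-164833822, plus strand) has matches at -12 and 6, and the upstream window has none. Lamp1 (chr8:13158911-13159210, plus strand) has matches at -61, -45, -28 and -15. The Manba window (chr3:135485361-135485660, plus strand) has no match, which says only that these letters are not in it. Of the 12 tested genes with CACGTG, 7 fell and 1 rose in CI, 6 rose in TNF, and 2 rose and 3 fell in DEX. Of the 22 tested genes with a window but no match, 11 fell and 1 rose in CI, 6 rose and 1 fell in TNF, and 4 rose and 6 fell in DEX. For all tested genes, the shares that rose and fell were 8.38% and 8.88% in CI, 13.9% and 11.2% in TNF, and 14.0% and 13.6% in DEX. The median log2 fold changes of the genes with and without a match were -0.32 and -0.22 in CI, 0.20 and 0.11 in TNF and -0.05 and -0.09 in DEX. These are descriptions of the windows, with no test of the difference between the 2 sets.

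Cells given insulin repeatedly had lower levels of 19 of the 38 lysosomal genes and higher levels of 2 (CI against control in limma, adjusted p under 0.05), while 8.88% of all tested genes fell and 8.38% rose. The median log2 fold change of the 38 was -0.20, against 0.01 for all tested genes. Both CI arrays lay below all 3 control arrays for 27 of the 38, a pattern seen for 22.0% of all tested genes. Values of change are log2 fold changes throughout, and those with ± carry their standard error. The largest falls were those of Glb1 (-0.80), Manba (-0.60), Naglu (-0.55), Ctsf (-0.54), Ids (-0.51), Gaa (-0.45) and Hexa (-0.40), and the rises were those of Scarb2 (0.42) and Gla (0.32). Among the 11872 genes above the median intensity of all probe sets, 12.1% fell in CI, 17.9% rose in TNF and 16.9% fell in DEX. With CI replicate 1 left out, 12 of the 38 fell, against 5.6% of all tested genes. Of the 21 calls, 9 held in every alternative setting except the choice of the second brightest probe set, which not every gene has: Arsa, Ctsa, Ctsf, Ctsl, Fuca1, Glb1, Hexa, Manba and Naglu. The median fall of the 38 was close in size to that of the spike probe sets (-0.23), whose part in it was not tested.

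After TNF, 14 of the 38 genes were higher than in control and 1, Fuca1, was lower, while 13.9% of all tested genes rose and 11.2% fell. The median log2 fold change was 0.12, against -0.01 for all tested genes, and all 3 TNF arrays lay above all 3 control arrays for 24 of the 38, against 21.8% of all tested genes. Gla rose most (0.96), followed by Ctsk (0.56), Naglu (0.53), Ctsa (0.50), Gaa (0.35), Arsa (0.33), Galns (0.30) and Lipa (0.29). Of the 15 calls, 10 held in the same settings: Arsa, Ctsa, Ctsk, Gaa, Gla, Hexa, Manba, Naglu, Neu1 and Sgsh.

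After dexamethasone, 6 of the 38 genes were higher than in control and 11 lower, while 14.0% of all tested genes rose and 13.6% fell, so the share that rose (15.8%) was near that of all tested genes and the share that fell was 28.9%. The median log2 fold change was -0.08, against 0.02 for all tested genes. The largest changes were those of Glb1 (-0.57), Arsb (-0.46), Lipa (-0.37), Gusb (0.34), Ctsd (-0.28), Ctsh (-0.27), Asah1 (-0.25) and Ctsf (-0.25). Of the 17 calls, 8 held in those settings: Arsb, Asah1, Ctsd, Glb1, Gusb, Laptm4a, Lipa and Sgsh. The calls of Manba and Scarb2 in DEX were lost with median centring or with the 2 groups fitted alone, and those of Asah1 and Laptm4a in CI with the 2 groups alone. The call of Fuca1 in TNF was lost with median centring or a pseudocount of 1, and that of Ctsz in TNF with a pseudocount of 1. By brightest probe set, no gene of the 38 differed from control by over 2-fold in any treatment. The second brightest Gla probe set did, at 1.05 in TNF (adjusted p = 5.37e-05 in limma over all probe sets). The 3 comparisons share the control arrays, so a high or low control value moves all of them together. In the 4 groups, the TNF mean was the highest for 23 of the 38 genes and the CI mean the lowest for 24. Of the 38, 28 passed in at least 1 comparison with control. The orders of means and this last count were taken for the 38 genes alone. No share of all tested genes was counted to set beside them.

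Markers of other cell types were read beside these results. The summed intensity of 14 macrophage and leukocyte genes, cells rich in lysosomal enzymes, was 4410 and 4806 in CI, from 6430 to 6872 in TNF, from 3836 to 4309 in DEX and from 5164 to 5370 in control arrays. It was lowest in DEX and CI and highest in TNF, with no overlap between TNF and the other groups. The sum includes Cd68, which is also counted among the further lysosomal genes below. The defining leukocyte genes Ptprc, Itgam and Mrc1 were dim and left out of the test, with group means between 20.9 and 52.4. Of the 11 markers tested, 1 rose (9.09%) and 2 fell (18.2%) in CI, and 2 rose (18.2%) and 1 fell (9.09%) in TNF. In DEX 1 rose (9.09%) and 3 fell (27.3%). Of all tested genes, 8.38% rose and 8.88% fell in CI, 13.9% and 11.2% in TNF, and 14.0% and 13.6% in DEX. Lyz2, the lysozyme of macrophages, changed by -0.64 in CI, 0.34 in TNF and -0.62 in DEX, and Cd14 by -0.68, 1.48 and 0.90 in the same order. Mpeg1, a pore-forming protein of macrophages, changed by 0.57, 0.18 and -1.67. The median change of the 11 was 0.00 in CI, 0.08 in TNF and -0.09 in DEX. The sum of 11 preadipocyte and fibroblast genes was 56171 and 58724 in CI, from 67691 to 70482 in TNF, from 42908 to 50013 in DEX and from 62308 to 71602 in control arrays, and that of 9 adipocyte genes 106932 and 107231 in CI, from 88930 to 89891 in TNF, from 102036 to 107578 in DEX and from 106837 to 107129 in control arrays. Of the 10 preadipocyte and fibroblast genes tested, 5 fell in CI, and 4 rose and 1 fell in TNF. In DEX 2 of them rose and 6 fell. Their median changes were -0.36 in CI, 0.00 in TNF and -0.72 in DEX. In each of these comparisons most of their calls had the direction of most lysosomal calls. The medians of the 38 lysosomal genes were -0.20 in CI, 0.12 in TNF and -0.08 in DEX, and the summed preadipocyte and fibroblast markers overlapped between TNF and control. In RNA from whole cultures, fewer cells of a type and less RNA per cell cannot be told apart. The part of these markers in the lysosomal results was not tested.

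**Figure D1:**
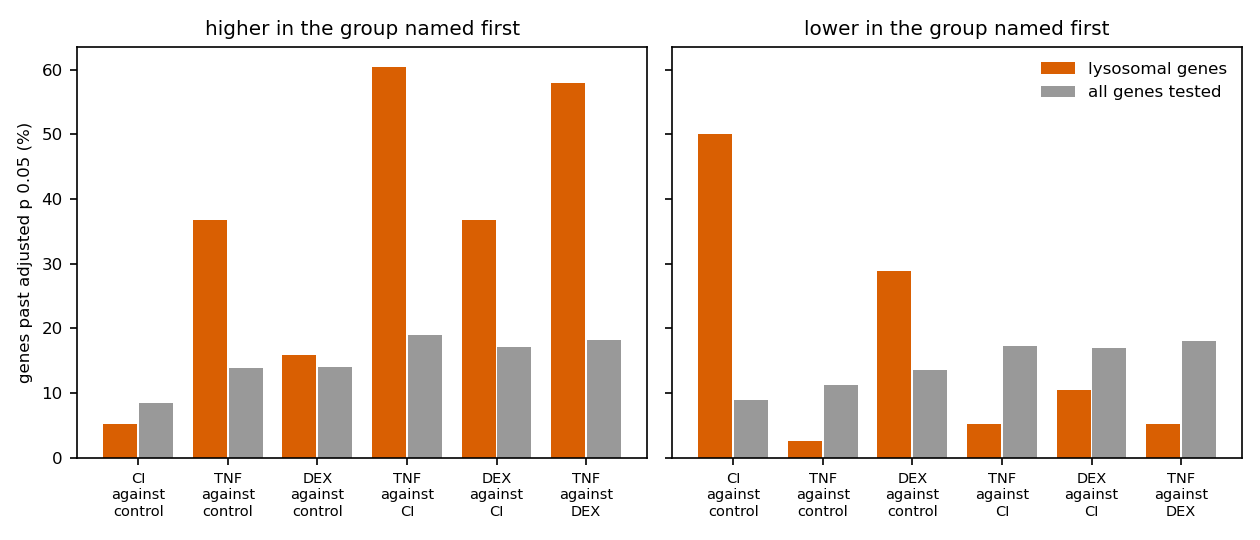
Share (%) of the 38 lysosomal genes (orange) and of all 15623 tested genes (grey) that passed an adjusted p of 0.05 in each comparison, higher on the left and lower on the right. The orange bar is tallest for higher genes in TNF against CI (60.5%) and, among lower genes, for CI against control (19 of 38).

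**Figure D2:**
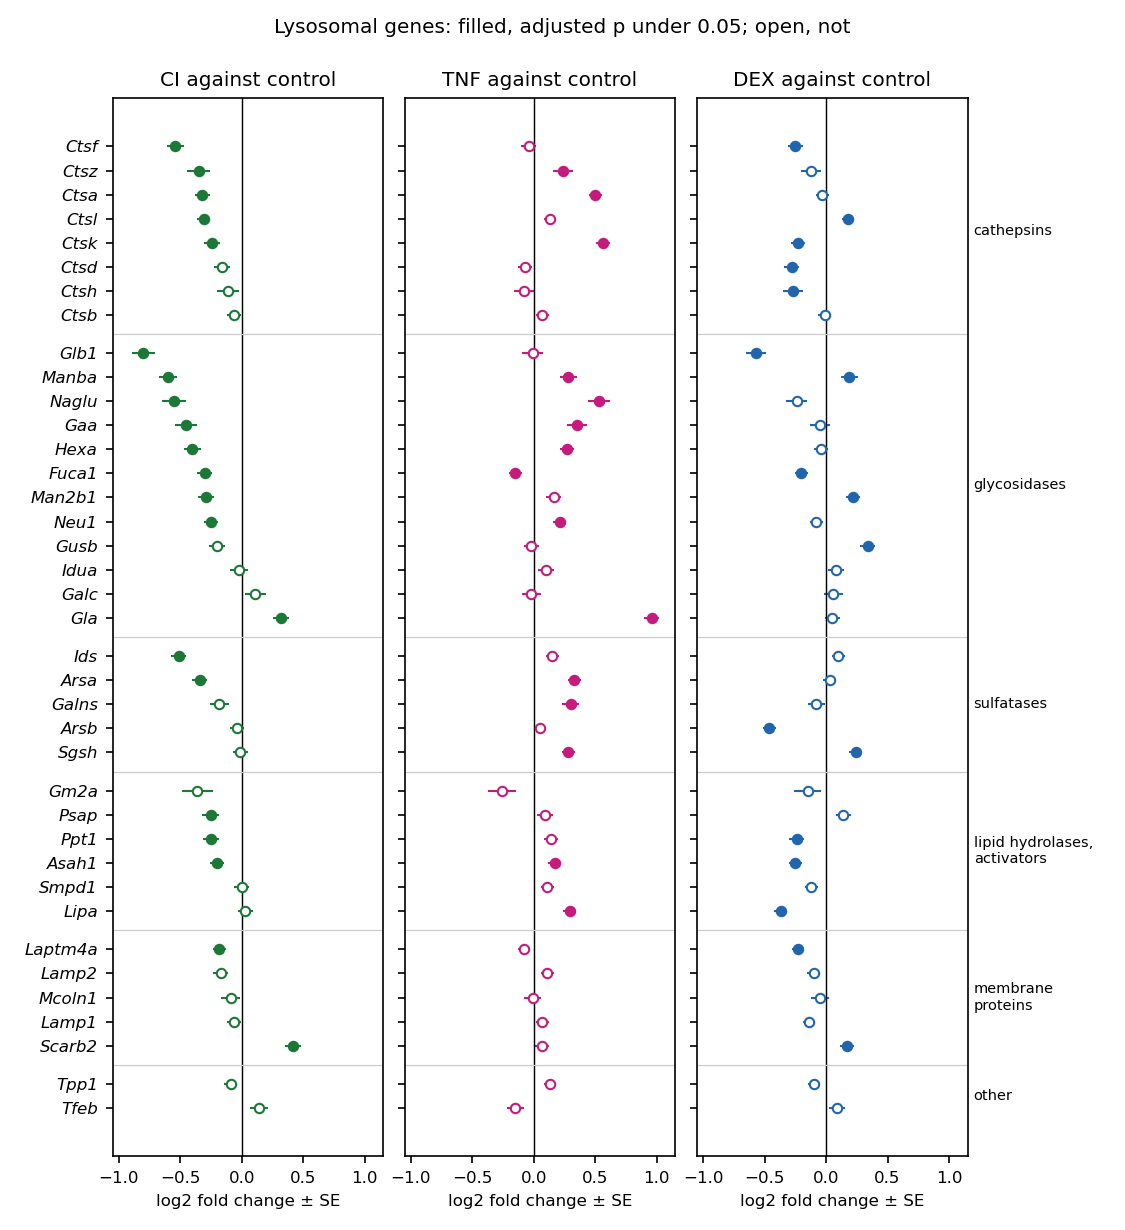
Log2 fold change with its standard error for each of the 38 lysosomal genes against control, in CI, TNF and DEX cells, grouped by class. Filled points passed the adjusted p of 0.05 and open points did not, and Glb1 is at -0.80 in CI, Gla at 0.96 in TNF and Glb1 at -0.57 in DEX.

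Of the 8 cathepsins tested, 5 fell in CI, 3 rose in TNF, and 1 rose and 4 fell in DEX. Intensities are the deposited linear values of a gene's brightest probe set and cannot be set against those of another gene. Ctsa is a serine carboxypeptidase that also shields beta-galactosidase and the sialidase Neu1 from breakdown. Its intensities were 3817 and 3658 in CI, 6759, 6663 and 6490 in TNF, 4646, 4640 and 4438 in DEX and 4925, 4484 and 4622 in control arrays. The CI arrays were the lowest and the TNF arrays the highest, with no overlap, while DEX overlapped control. The log2 fold change was -0.32 ± 0.0596 (adjusted p = 0.00177) in CI and 0.50 ± 0.0533 (adjusted p = 6.7e-06) in TNF. Ctsk, a cysteine protease best known for collagen breakdown by osteoclasts, had intensities of 548.8 and 531.1 in CI, 968.0, 942.6 and 947.8 in TNF, 555.0, 574.2 and 510.9 in DEX and 641.5, 679.4 and 606.4 in control arrays. TNF arrays lay above every other array, and both CI and DEX arrays lay below the controls. Ctsk rose by 0.56 ± 0.0586 (adjusted p = 6.22e-06) in TNF and changed by -0.24 ± 0.0655 (adjusted p = 0.0186) in CI and -0.23 ± 0.0586 (adjusted p = 0.00886) in DEX. The CI call was lost without control replicate 2, or CI replicate 1 or 2 (adjusted p of 0.0701 to 0.118) and the DEX call without control replicate 2 (adjusted p = 0.0527).

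Ctsl, an abundant lysosomal cysteine protease, had intensities of 9546 and 9141 in CI, 12893, 12800 and 12391 in TNF, 13177, 13101 and 13284 in DEX and 11655, 11667 and 11539 in control arrays. CI arrays were below and DEX arrays above all controls, with log2 fold changes of -0.31 ± 0.0537 (adjusted p = 0.000996) and 0.18 ± 0.048 (adjusted p = 0.0101). The TNF arrays were also above the controls, at 0.13 ± 0.048 (adjusted p = 0.0662), which missed the threshold. Ctsz, a cysteine carboxypeptidase, had intensities of 4461 and 5019 in CI, 7176, 7595 and 6673 in TNF, 5144, 5697 and 5848 in DEX and 6828, 5741 and 5649 in control arrays. It fell in CI by 0.35 ± 0.0903 (adjusted p = 0.0138) and rose in TNF by 0.24 ± 0.0808 (adjusted p = 0.0432), although TNF replicate 3 was under the highest control array. Its CI call was lost without control replicate 1, or CI replicate 1 (adjusted p of 0.0553 to 0.176), and its TNF call without control replicate 2 or 3, or TNF replicate 1 or 2 (adjusted p of 0.102 to 0.16).

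Ctsf, another cysteine protease, had intensities of 234.6 and 243.1 in CI, 337.8, 355.8 and 341.8 in TNF, 284.6, 313.3 and 292.1 in DEX and 384.7, 333.0 and 349.7 in control arrays. CI and DEX arrays lay below the controls without overlap, at -0.54 ± 0.0676 (adjusted p = 9.17e-05) and -0.25 ± 0.0605 (adjusted p = 0.00605), whereas TNF overlapped control (-0.04). A second, dimmer Ctsf probe set did not pass in either, at 0.05 in CI and 0.13 in DEX. The aspartic protease Ctsd had intensities of 7774 and 8730 in CI, 8862, 8963 and 8505 in TNF, 7636, 7261 and 7832 in DEX and 9504, 8824 and 9304 in control arrays, and of the 3 comparisons with control DEX passed (-0.28 ± 0.0588, adjusted p = 0.00207). The aminopeptidase Ctsh was dim, at 94.2 and 94.1 in CI, 95.1, 86.3 and 108.4 in TNF, 76.0, 94.3 and 78.1 in DEX and 109.1, 101.4 and 98.2 in control arrays. Its DEX arrays were below the controls (-0.27 ± 0.079, adjusted p = 0.0185), a call lost without control replicate 1, or DEX replicate 1 or 3 (adjusted p of 0.0691 to 0.0811). The brightest probe set of Ctsb, a cysteine protease, ranged from 11144 to 12945 over the 11 arrays and passed in no comparison. Ctss, the cathepsin of antigen-presenting cells, had intensities of 39.8 and 39.5 in CI, 44.3, 44.9 and 45.8 in TNF, 36.8, 39.3 and 36.9 in DEX and 37.9, 38.3 and 40.5 in control arrays, below the lower limit of 51.7 for testing. Its TNF arrays were the highest, and without that limit it was higher in TNF than in control by 0.15 (adjusted p = 0.0279).

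Glycosidases, which cut sugars from glycoproteins, glycolipids and glycosaminoglycans, held the largest changes. Of 12 tested, 8 fell and 1 rose in CI, 6 rose and 1 fell in TNF, and 3 rose and 2 fell in DEX. Glb1, the lysosomal beta-galactosidase, had intensities of 1293 and 1157 in CI, 2059, 2235 and 2110 in TNF, 1343, 1554 and 1426 in DEX and 2437, 2141 and 1884 in control arrays. All CI and DEX arrays lay well under the lowest control, and TNF arrays were in the control range. Its log2 fold change was -0.80 ± 0.0944 (adjusted p = 6.06e-05) in CI, -0.01 ± 0.0844 (adjusted p = 0.969) in TNF and -0.57 ± 0.0844 (adjusted p = 0.000109) in DEX. Gla, the alpha-galactosidase that clears globo-series glycolipids, had intensities of 668.3 and 669.4 in CI, 1023, 1066 and 1050 in TNF, 513.8, 589.6 and 552.5 in DEX and 496.4, 541.2 and 559.5 in control arrays. It was highest in TNF, next in CI, and DEX overlapped control. The rise was 0.96 ± 0.0611 (adjusted p = 4.22e-08) in TNF and 0.32 ± 0.0683 (adjusted p = 0.00446) in CI. A dimmer Gla probe set, with group means of 155.4 in CI, 330.7 in TNF, 170.2 in DEX and 152.9 in control, also rose in TNF (1.05) and did not pass in CI (0.04).

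Naglu, an exoglycosidase of heparan sulfate breakdown, had intensities of 535.8 and 510.0 in CI, 1162, 1131 and 1069 in TNF, 651.0, 727.4 and 584.9 in DEX and 882.5, 768.5 and 681.0 in control arrays. The 2 CI arrays were the lowest and the TNF arrays the highest, and both sets were clear of the controls. The log2 fold changes were -0.55 ± 0.0986 (adjusted p = 0.00138) in CI, 0.53 ± 0.0882 (adjusted p = 0.000459) in TNF and -0.24 ± 0.0882 (adjusted p = 0.0559) in DEX, the last of which did not pass. Gaa, which degrades glycogen, had intensities of 1777 and 2163 in CI, 3602, 3470 and 3208 in TNF, 2667, 2473 and 2661 in DEX and 2969, 2468 and 2660 in control arrays. CI was again below and TNF above every control array, at -0.45 ± 0.0905 (adjusted p = 0.00302) and 0.35 ± 0.0809 (adjusted p = 0.00589). The Gaa call in CI was lost without CI replicate 1 (adjusted p = 0.0725). Hexa, the alpha subunit of beta-hexosaminidase, had intensities of 5838 and 5462 in CI, 9085, 8387 and 9422 in TNF, 7060, 7694 and 7046 in DEX and 7510, 7454 and 7367 in control arrays. It had the same order of groups, at -0.40 ± 0.066 (adjusted p = 0.000809) in CI and 0.27 ± 0.0591 (adjusted p = 0.0041) in TNF, with DEX at -0.04.

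Manba, the beta-mannosidase, had intensities of 197.4 and 214.4 in CI, 374.5, 387.0 and 410.9 in TNF, 367.8, 390.1 and 346.1 in DEX and 338.2, 290.0 and 331.6 in control arrays. CI arrays were well below the controls, and TNF and DEX arrays were above them. The changes were -0.60 ± 0.0759 (adjusted p = 0.000106) in CI, 0.28 ± 0.0679 (adjusted p = 0.00747) in TNF and 0.19 ± 0.0679 (adjusted p = 0.0451) in DEX. The DEX call was lost without control replicate 2 or 3, TNF replicate 1 or 2, or DEX replicate 1 or 2 (adjusted p of 0.052 to 0.211). Man2b1, the alpha-mannosidase, had intensities of 2552 and 2424 in CI, 3361, 3263 and 3585 in TNF, 3777, 3461 and 3395 in DEX and 3120, 3043 and 2959 in control arrays. It fell in CI and rose in DEX, at -0.29 ± 0.0653 (adjusted p = 0.00693) and 0.22 ± 0.0585 (adjusted p = 0.011), and its TNF arrays were above the controls without passing (0.16 ± 0.0585, adjusted p = 0.0573). These calls were lost without CI replicate 2 (adjusted p = 0.0702) for CI and without DEX replicate 1 (adjusted p = 0.0565) for DEX.

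Neu1, the lysosomal sialidase, had intensities of 642.4 and 683.7 in CI, 932.0, 939.1 and 878.9 in TNF, 737.0, 749.7 and 753.1 in DEX and 798.5, 797.6 and 771.5 in control arrays. CI was below and TNF above every control array, at -0.25 ± 0.0573 (adjusted p = 0.00801) and 0.21 ± 0.0512 (adjusted p = 0.00712), and the CI call was lost without CI replicate 1 (adjusted p = 0.104). Fuca1, the alpha-fucosidase, had intensities of 1445 and 1461 in CI, 1616, 1613 and 1600 in TNF, 1532, 1637 and 1518 in DEX and 1750, 1743 and 1881 in control arrays. Every treated array lay below the lowest control array, at -0.30 ± 0.059 (adjusted p = 0.00285) in CI, -0.15 ± 0.0527 (adjusted p = 0.0473) in TNF and -0.20 ± 0.0527 (adjusted p = 0.0117) in DEX. Its TNF call was lost without control replicate 1, 2 or 3, CI replicate 1 or 2, TNF replicate 1, 2 or 3, or DEX replicate 1 or 3 (adjusted p of 0.0511 to 0.193), and its DEX call without control replicate 3 (adjusted p = 0.0643). Gusb, the beta-glucuronidase, had intensities of 994.4 and 999.0 in CI, 1100, 1079 and 1214 in TNF, 1411, 1537 and 1439 in DEX and 1201, 1092 and 1155 in control arrays. Of the comparisons with control DEX passed, with arrays above all others (0.34 ± 0.0603, adjusted p = 0.000503). Idua, which removes iduronic acid, and Galc, which splits galactosylceramide, passed in none of the 6 comparisons, and their changes against control ran from -0.02 to 0.11.

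**Figure D3:**
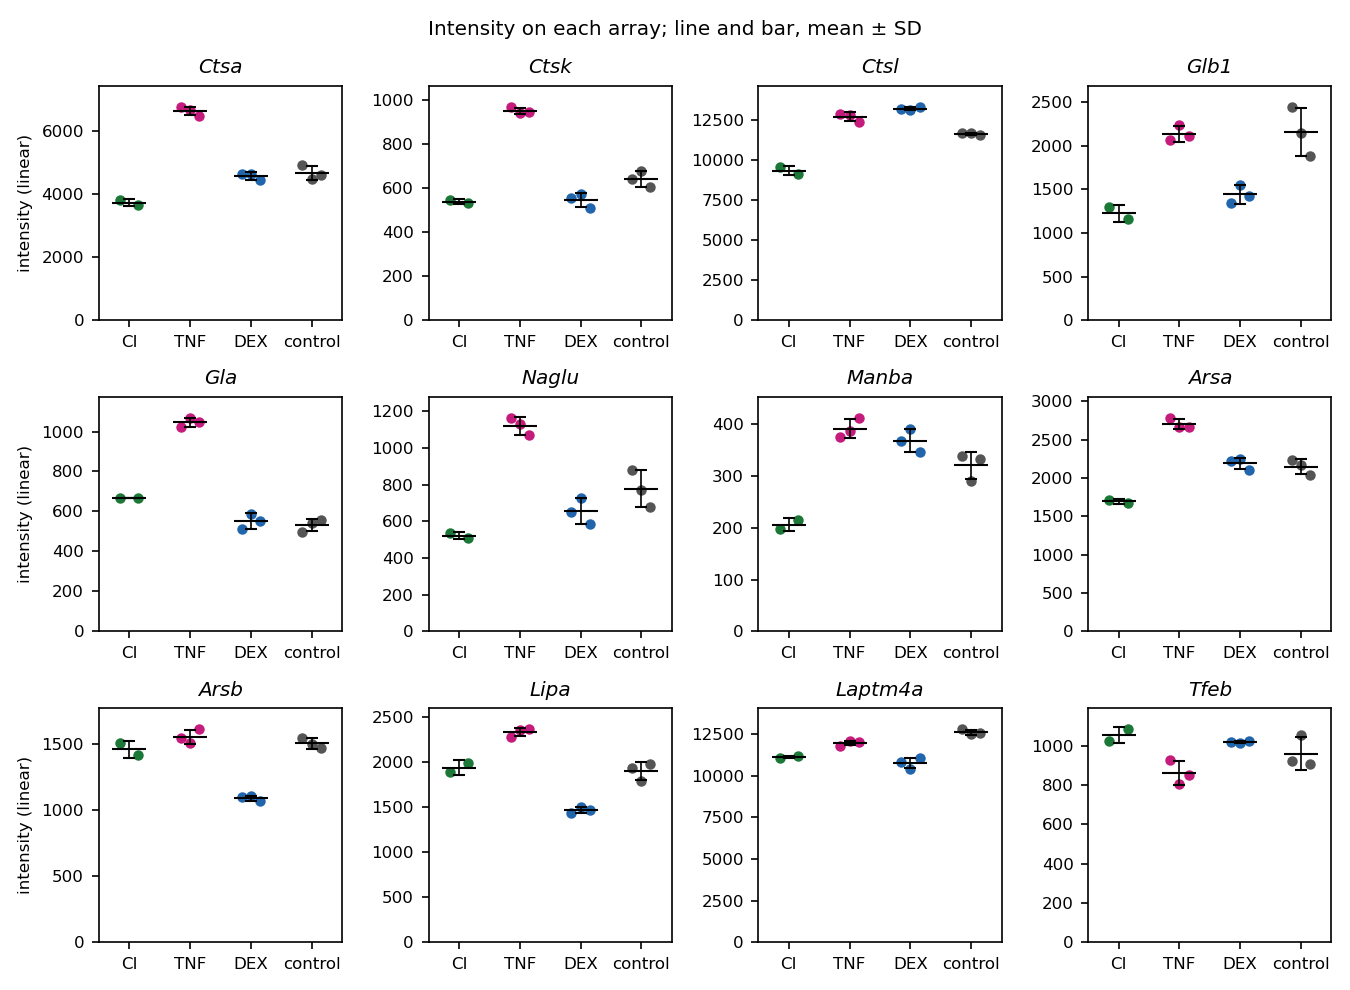
Deposited linear intensity on each array for 12 lysosomal genes in CI, TNF, DEX and control cells, with the group mean as a line and its SD as a bar. Ctsa, Naglu and Arsa are lowest in CI and highest in TNF, Gla averages 1046 in TNF, and Glb1 is low in CI and DEX.

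Among the 5 sulfatases, which remove sulfate from glycosaminoglycans and sulfolipids, 2 fell in CI, 3 rose in TNF, and 1 rose and 1 fell in DEX. Arsa, the sulfatase of the lipid sulfatide, had intensities of 1716 and 1675 in CI, 2778, 2666 and 2659 in TNF, 2226, 2243 and 2103 in DEX and 2232, 2174 and 2035 in control arrays. CI was below and TNF above all controls, at -0.34 ± 0.0603 (adjusted p = 0.00136) and 0.33 ± 0.0539 (adjusted p = 0.000368). Ids, a sulfatase of heparan and dermatan sulfate, had intensities of 1312 and 1210 in CI, 1965, 1944 and 2085 in TNF, 2004, 1915 and 1891 in DEX and 1852, 1816 and 1745 in control arrays. Its CI arrays stood clear of all others (-0.51 ± 0.0615, adjusted p = 6.81e-05). The mean of its 6 probe sets moved less and did not pass (-0.12, adjusted p = 0.17). Galns, a sulfatase of keratan sulfate, had intensities of 320.7 and 325.0 in CI, 477.9, 436.4 and 463.0 in TNF, 359.8, 381.4 and 307.3 in DEX and 384.3, 367.8 and 353.8 in control arrays. TNF arrays lay above all controls (0.30 ± 0.0705, adjusted p = 0.0054), and the mean of its probe sets, the other of which was dim, did not pass (0.00, adjusted p = 0.968).

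Sgsh, a sulfamidase of heparan sulfate, had intensities of 221.0 and 246.7 in CI, 285.9, 283.8 and 293.0 in TNF, 273.5, 285.4 and 280.7 in DEX and 242.6, 226.9 and 235.0 in control arrays. TNF and DEX arrays were all above the controls, by 0.28 ± 0.0541 (adjusted p = 0.00164) and 0.24 ± 0.0541 (adjusted p = 0.00376), while CI overlapped them. Arsb, a sulfatase of dermatan sulfate, had intensities of 1506 and 1417 in CI, 1548, 1507 and 1613 in TNF, 1098, 1105 and 1067 in DEX and 1549, 1502 and 1468 in control arrays. All DEX arrays were between 1067 and 1105, well below every other array, at -0.46 ± 0.052 (adjusted p = 7.12e-06), and CI and TNF did not pass.

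Of the 6 genes of lipid breakdown, 3 fell in CI, 2 rose in TNF and 3 fell in DEX. Lipa, the lysosomal acid lipase that hydrolyses cholesteryl esters and triglycerides, had intensities of 1881 and 1991 in CI, 2273, 2356 and 2359 in TNF, 1434, 1495 and 1465 in DEX and 1932, 1790 and 1973 in control arrays. TNF arrays were above and DEX arrays below all controls, at 0.29 ± 0.054 (adjusted p = 0.000991) and -0.37 ± 0.054 (adjusted p = 9.52e-05), and CI overlapped control. The TNF rise did not pass for the mean of its 3 probe sets (0.23, adjusted p = 0.119). Asah1, the acid ceramidase, had intensities of 4396 and 4114 in CI, 5461, 5460 and 5594 in TNF, 4099, 3895 and 4290 in DEX and 5016, 4845 and 4772 in control arrays. CI and DEX were below and TNF above every control array, at -0.20 ± 0.0604 (adjusted p = 0.036) in CI, 0.17 ± 0.054 (adjusted p = 0.0285) in TNF and -0.25 ± 0.054 (adjusted p = 0.00246) in DEX. The CI call was lost without control replicate 1, 2 or 3, or CI replicate 1 or 2 (adjusted p of 0.0513 to 0.245), and the TNF call without control replicate 2 or 3, or TNF replicate 1, 2 or 3 (adjusted p of 0.0618 to 0.0984).

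Ppt1, a thioesterase that removes fatty acids from proteins, had intensities of 994.2 and 862.6 in CI, 1173, 1201 and 1270 in TNF, 932.0, 952.0 and 900.1 in DEX and 1118, 1108 and 1076 in control arrays. CI and DEX arrays lay below the controls, at -0.25 ± 0.0668 (adjusted p = 0.0196) and -0.24 ± 0.0598 (adjusted p = 0.00655). The CI call was lost without control replicate 1 or 2, or CI replicate 2 (adjusted p of 0.0578 to 0.256), and for the mean of its 5 probe sets neither passed (-0.06, adjusted p = 0.508 in CI and -0.11, adjusted p = 0.138 in DEX). In limma over all probe sets, the second brightest changed by -0.28 (adjusted p = 0.0208) in CI and -0.44 (adjusted p = 0.00022) in DEX. The rest were dim, with means of 92.2, 70.2 and 64.4. Psap, the precursor of the saposins that help enzymes reach lipids, had intensities of 9444 and 11140 in CI, 13108, 12931 and 13032 in TNF, 13520, 12916 and 13942 in DEX and 12571, 11937 and 12092 in control arrays. Against control CI passed (-0.25 ± 0.0692, adjusted p = 0.0214), with CI replicate 1 lower than CI replicate 2, and the call was lost without control replicate 1, or CI replicate 1 (adjusted p of 0.0719 to 0.338). The sphingomyelinase Smpd1 and the GM2 activator Gm2a passed in no comparison with control. Their changes ran from -0.36 (Gm2a in CI, adjusted p = 0.0642) to 0.11 (Smpd1 in TNF, adjusted p = 0.164).

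Of 5 membrane proteins tested, 1 rose and 1 fell in CI (20.0% each, against 8.38% and 8.88% of all tested genes). None passed in TNF (0 of 5 in limma, with 0 at an unadjusted p under 0.05). In DEX 1 rose and 1 fell (20.0% each, against 14.0% and 13.6%). These counts hold for the brightest probe sets. As means over probe sets, Lamp2 (0.20, adjusted p = 0.00717) and Scarb2 (0.19, adjusted p = 0.00844) were higher in TNF. Laptm4a, a small protein of late endosomes, had intensities of 11089 and 11173 in CI, 11807, 12070 and 12001 in TNF, 10829, 10420 and 11060 in DEX and 12790, 12486 and 12557 in control arrays. CI and DEX arrays were below the controls, at -0.18 ± 0.0541 (adjusted p = 0.0327) and -0.23 ± 0.0484 (adjusted p = 0.00234), and the CI call was lost without control replicate 1, 2 or 3, or CI replicate 1 or 2 (adjusted p of 0.0668 to 0.158). Lamp1 and Lamp2, the main glycoproteins of the lysosomal membrane, and the cation channel Mcoln1 passed in no comparison with control by their brightest probe sets, with changes from -0.17 to 0.11. Lamp1 had intensities of 12319 and 13084 in CI, 13770, 13866 and 14071 in TNF, 12176, 11946 and 12145 in DEX and 13678, 13234 and 12939 in control arrays, a narrow range in which DEX lay just below the controls (-0.14 ± 0.0498, adjusted p = 0.0562). Tpp1, a tripeptidyl peptidase, had intensities of 5510 and 5416 in CI, 6291, 6505 and 6333 in TNF, 5427, 5646 and 5283 in DEX and 5730, 5954 and 5785 in control arrays, with TNF above and CI and DEX below the controls but none past the threshold. Tfeb itself had intensities of 1026 and 1083 in CI, 928.1, 803.0 and 852.5 in TNF, 1016, 1015 and 1025 in DEX and 920.5, 1054 and 905.4 in control arrays. It passed in no comparison with control, at 0.14 ± 0.075 (adjusted p = 0.253) in CI, -0.15 ± 0.067 (adjusted p = 0.112) in TNF and 0.09 ± 0.067 (adjusted p = 0.369) in DEX.

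Probe sets of 1 gene did not always move together. In a fit over all 27826 probe sets, and of 25 genes with at least 2 of them, the brightest was not called while a dimmer one was for 3 in CI, 5 in TNF and 3 in DEX, and 1 gene, Scarb2, was called in opposite directions in CI. Scarb2 carries the enzyme glucocerebrosidase to the lysosome, and its brightest probe set had intensities of 3607 and 3346 in CI, 2690, 2728 and 2753 in TNF, 2726, 3087 and 2934 in DEX and 2567, 2543 and 2668 in control arrays. It was highest in CI, at 0.42 ± 0.0638 (adjusted p = 0.000409). The other averaged 2080 in CI, 3108 in TNF, 3312 in DEX and 2517 in control, with changes of -0.27 ± 0.0609 (adjusted p = 0.00848) in CI, 0.30 ± 0.0545 (adjusted p = 0.00135) in TNF and 0.39 ± 0.0545 (adjusted p = 9.93e-05) in DEX. The rise of the brightest in DEX (0.17 ± 0.0571, adjusted p = 0.0412) was lost without control replicate 1, 2 or 3, TNF replicate 1 or 2, or DEX replicate 2 or 3 (adjusted p of 0.0532 to 0.144). For Ctsb, the third brightest probe set, with means of 745.8 in CI, 1308 in TNF, 1291 in DEX and 934.8 in control, was lower in CI (-0.32) and higher in TNF (0.47) and DEX (0.46), where the brightest did not pass. The second Tpp1 probe set changed by -0.43 in CI, 0.25 in TNF and -0.27 in DEX, and the dimmest of Lamp2 by -0.49 in CI and 0.37 in TNF, all called in the same fit. When a gene was read as the mean over its probe sets, the calls of Gla, Ids, Man2b1, Neu1, Ppt1 and Scarb2 in CI, of Fuca1, Galns and Lipa in TNF, and of Ctsf, Ctsh, Ctsl and Ppt1 in DEX did not pass. Other genes passed as that mean only. In CI these were Lamp2 (-0.29, adjusted p = 0.0024), Tpp1 (-0.26, adjusted p = 0.00259) and Galns (-0.18, adjusted p = 0.019). In TNF they were Lamp2 (0.20, adjusted p = 0.00717), Tpp1 (0.19, adjusted p = 0.00528), Scarb2 (0.19, adjusted p = 0.00844) and Ctsb (0.18, adjusted p = 0.0122), and in DEX Tpp1 (-0.18, adjusted p = 0.00623), Lamp1 (-0.14, adjusted p = 0.024) and Ctsb (0.16, adjusted p = 0.0219). Lamp1 has 1 probe set, so its change was -0.14 in both limma fits, and its adjusted p differed from the 0.0562 of the main fit without any averaging.

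**Figure D4:**
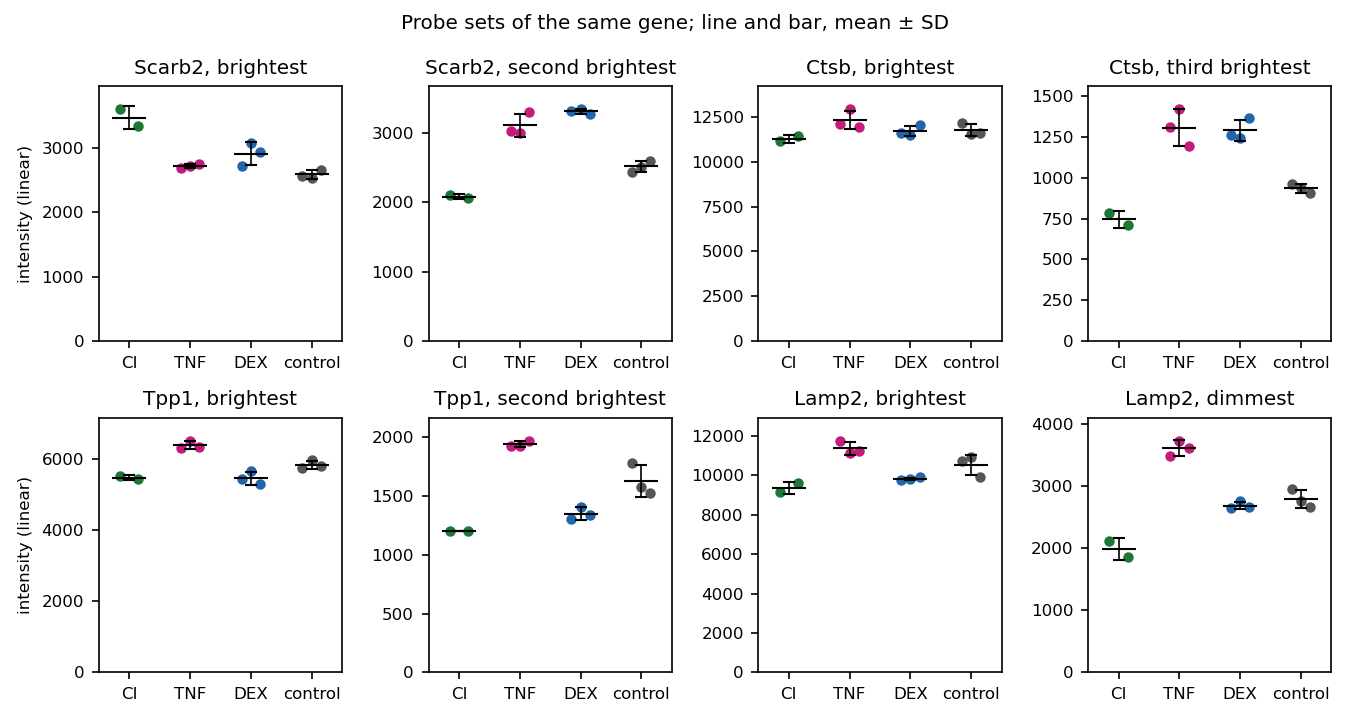
Linear intensity on each array for 2 probe sets each of Scarb2, Ctsb, Tpp1 and Lamp2, with group mean and SD. The Scarb2 panels differ in the order of CI and control, and the dimmer probe sets of Ctsb, Tpp1 and Lamp2 separate TNF from CI more than the brightest do, with the dimmest of Lamp2 averaging 3611 in TNF and 1989 in CI.

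The treatments were also set against each other. In TNF against CI, 23 of the 38 genes were higher and 2 lower, while 18.9% of all tested genes were higher and 17.3% lower, and the median log2 difference was 0.31, against -0.03 for all. All TNF arrays lay above both CI arrays for 31 of the 38, against 27.1% of all tested genes. By brightest probe set Naglu, at 1.08 ± 0.0986 (adjusted p = 8.81e-07), was the 1 gene over 2-fold. Manba (0.87), Ctsa (0.83), Ctsk (0.80), Gaa (0.80) and Glb1 (0.79) followed. The second brightest Gla probe set was also over 2-fold, at 1.01 (adjusted p = 9.39e-05 in limma over all probe sets). By class, 5 of 8 cathepsins, 8 of 12 glycosidases, 4 of 5 sulfatases and 4 of 6 genes of lipid breakdown were higher. Tfeb was lower in TNF than in CI (-0.29 ± 0.075, adjusted p = 0.00705), as was the brightest Scarb2 probe set (-0.35). The Tfeb call was lost without CI replicate 2 (adjusted p = 0.0725). The second Scarb2 probe set was higher in TNF than in CI (0.57, adjusted p = 7.83e-06), and the mean of both did not pass (0.11, adjusted p = 0.0943). As means over probe sets, Ids (0.13, adjusted p = 0.0891), Lipa (0.20, adjusted p = 0.173) and Ppt1 (0.05, adjusted p = 0.508) also lost their calls in TNF against CI.

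In TNF against DEX, 22 genes were higher and 2 lower, against 18.2% and 18.0% of all tested genes, led by Gla (0.91), Ctsk (0.79), Naglu (0.77) and Lipa (0.66). The 2 lower were Gusb (-0.37) and Tfeb (-0.24), the Tfeb call being lost without TNF replicate 2 (adjusted p = 0.0597). In DEX against CI, 14 genes were higher and 4 lower, against 17.1% and 16.9%. Manba (0.79), Ids (0.61), Gusb (0.54), Man2b1 (0.51) and Ctsl (0.50) were the highest, and Arsb (-0.42), Lipa (-0.40), Gla (-0.27) and Scarb2 (-0.25) were lower. The second Scarb2 probe set went the other way in DEX against CI (0.67, adjusted p = 1.3e-06). Read as the mean over its probe sets, Scarb2 was higher in DEX than in CI (0.21, adjusted p = 0.00547), and the calls of Gla (-0.03, adjusted p = 0.705), Ids (0.15, adjusted p = 0.0551) and Neu1 (0.06, adjusted p = 0.419) did not pass. By brightest probe set, 5 of the 38 genes passed in none of the 6 comparisons: Ctsb, Galc, Gm2a, Idua and Mcoln1. Of these, the mean over probe sets passed for Mcoln1 in TNF against CI (0.24, adjusted p = 0.00804) and for Ctsb in TNF and DEX against control, in TNF against CI (0.32, adjusted p = 0.000336) and in DEX against CI (0.30, adjusted p = 0.000544).

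Other lysosomal genes were read beside the 40. Of 21 further genes of the lysosomal lumen and membrane, 2 rose and 5 fell in CI (9.52% and 23.8%). In TNF 9 rose and 1 fell (42.9% and 4.76%), and in DEX 3 rose and 8 fell (14.3% and 38.1%). In TNF against CI 14 were higher and 2 lower (66.7% and 9.52%). Of all tested genes, 8.38% rose and 8.88% fell in CI, 13.9% and 11.2% in TNF, and 14.0% and 13.6% in DEX. In TNF against CI these shares were 18.9% and 17.3%. Dnase2a, the acid deoxyribonuclease, fell in CI (-0.66 ± 0.0732, adjusted p = 3.76e-05), and Sumf1, which activates sulfatases, fell in CI (-0.36) and rose in TNF (0.50). The endopeptidase Lgmn rose in TNF (0.97 ± 0.0614, adjusted p = 4.07e-08), and the cholesterol transporter Npc1 rose in TNF (0.43) and DEX (0.34). The phospholipase Pla2g15 rose in TNF (0.35) and fell in DEX (-0.42), as did the acid phosphatase Acp5 (0.82 and -0.85). Ctsc, the dipeptidyl peptidase, rose in CI (0.72) and DEX (0.78).

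Of 14 V-ATPase subunits tested, 1 rose and 1 fell in CI, 2 rose in TNF, and 2 rose and 3 fell in DEX, with medians of 0.04, 0.04 and -0.06 in that order. Those shares, 7.14% each way in CI, 14.3% up in TNF and 14.3% up in DEX, were near those of all tested genes (8.38% up and 8.88% down in CI, 13.9% up in TNF and 14.0% up in DEX), and 21.4% fell in DEX against 13.6%. The accessory subunit Atp6ap2 fell in CI (-0.33 ± 0.0669, adjusted p = 0.00325) and rose in DEX (0.36 ± 0.0598, adjusted p = 0.000311). Of 12 genes of sorting to the lysosome, 3 fell in CI. In TNF 1 rose (8.33%, against 13.9% of all tested genes) and 1 fell (8.33%, against 11.2%). In DEX 1 rose (8.33%, against 14.0%) and 3 fell. The shares that fell in CI and DEX were above those of all tested genes (8.88% and 13.6%). The sorting receptor Sort1 fell in each comparison, at -0.25 in CI, -0.34 in TNF and -0.23 in DEX, its CI call being lost without CI replicate 2 (adjusted p = 0.0607) and for the mean of its probe sets (adjusted p = 0.635). Gnptab, a subunit of the enzyme that makes the mannose phosphate tag, rose in TNF (0.31).

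Of 17 autophagy genes, 2 rose (11.8%, against 8.38% of all tested genes) and 6 fell (35.3%, against 8.88%) in CI. In TNF 3 rose (17.6%, against 13.9%), and in DEX 7 rose (41.2%, against 14.0%) and 1 fell (5.88%, against 13.6%). Map1lc3b, which coats autophagosomes, changed by -0.46 ± 0.0632 (adjusted p = 0.000179) in CI, 0.22 ± 0.0565 (adjusted p = 0.0105) in TNF and 0.35 ± 0.0565 (adjusted p = 0.000246) in DEX, the TNF call being lost without control replicate 2, or TNF replicate 1 (adjusted p of 0.0503 to 0.0528). Gabarapl1, of the same family, fell in CI (-0.38), a call lost without CI replicate 1 (adjusted p = 0.0559), and rose in DEX (0.45). Of 8 regulators of lysosomal genes tested, Tfeb aside, none passed in CI in limma (0 at an unadjusted p under 0.05). In TNF 2 of the 8 rose, and in DEX 2 rose and 2 fell. Among all tested genes, 13.9% rose in TNF, and 14.0% rose and 13.6% fell in DEX. Mitf, a relative of TFEB, rose in TNF (0.48 ± 0.119, adjusted p = 0.00821) and DEX (0.77 ± 0.119, adjusted p = 0.000154). Among 4 protease inhibitors, Cst3, the secreted inhibitor cystatin C, fell in CI (-0.32), and Serpinb6a rose in TNF (0.55) and DEX (0.28).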

How the data were processed

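Transcript levels were measured with Affymetrix arrays in 11 samples of 3T3-L1 adipocytes (CI n = 2, TNF n = 3, DEX n = 3, control n = 3). The deposited table gives a linear intensity for 45101 probe sets on every array, and the number of its columns that match no sample is 0. The steps by which the authors corrected, summarised and normalized the intensities are not given in the sources used here. Groups and replicate numbers come from the sample titles.

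Intensities had 16 added and were log2-transformed, which makes fold changes of dim genes too small, and no further normalization was applied. The 64 control probe sets were left out. The platform annotation gave 1 gene symbol for 34945 probe sets and several for 932, which were not named, and listed none for 9160. A gene was read from the probe set with the highest mean (18193 genes). It was tested if that mean reached the 25th percentile of all probe sets, at 51.7, as it did for 15623 genes. Tests were two-sided in limma 3.58.1 (R 4.3.3; lmFit with a mean per group over the 11 arrays, contrasts and eBayes). The threshold was an adjusted p of 0.05 by the Benjamini-Hochberg method over the 15623 genes. The error beside a log2 fold change is its standard error. The procedure was tested on simulated data with independent noise for each gene and array. These data held no array-wide differences, so the simulation cannot speak to the part of such differences in the calls. The small number of arrays limits the precision.

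The gene lists, the members among them, the tests and the rule for named genes were chosen with earlier results of these data known. By that rule all 40 genes are accounted for, those passing in at least 1 comparison with control are given by array, and other lists have up to 4 named genes a comparison. Promoter sequences are from RefSeq (GRCm38.p6), matched by symbol.

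Replicate numbers were checked for pairing: the correlations of same-numbered arrays' deviations from their group means ran from -0.287 to 0.341. They were 0.288, 0.009 and 0.341 between control and TNF, 0.277, 0.019 and 0.106 between control and DEX, and 0.22, -0.166 and 0.055 between TNF and DEX. In CI, with 2 arrays, the deviations mirror each other. These values do not settle whether the numbers pair the samples, and the main fit did not pair them. Alternatives were the pseudocount, the filter, the normalization, the probe set rule, the samples in the fit, the empirical Bayes prior, the replicate block and each array left out.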

Additional observations from a re-analysis of the deposited data

How the results depend on the processing

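Each comparison was recomputed with another pseudocount (1 or 64), no filter or a stricter one, quantile normalization or median centring, the mean of all probe sets, only the groups compared, an intensity-dependent prior, a replicate block, and each array left out. For CI against control the count of higher genes was 0 with the mean of all probe sets, and with arrays left out the counts ran from 12 to 21 lower, with 2 higher each time. For TNF against control the count of lower genes was 0 with a pseudocount of 1, median centring, the mean of all probe sets or the replicate block, and 2 with quantile normalization. With arrays left out it ran from 0 to 1, and that of higher genes from 12 to 15. DEX against control ran from 10 to 13 lower and from 4 to 6 higher. TNF against CI ran from 23 to 25 higher and from 1 to 2 lower, with 1 lower for the mean of all probe sets. DEX against CI ran from 10 to 16 higher and from 3 to 5 lower, with 2 lower for the mean of all probe sets. TNF against DEX ran from 21 to 22 higher and from 1 to 2 lower. With the replicate block the counts of higher and lower genes were 2 and 18 in CI, 13 and 0 in TNF, 4 and 12 in DEX, 23 and 2 in TNF against CI, 15 and 4 in DEX against CI, and 22 and 2 in TNF against DEX. Whether the numbers pair the samples is not settled by the correlations. The mean of all probe sets turned the sign for Ctsb in DEX against control (0.16), Ctsf in TNF against DEX (-0.02), and Scarb2 in TNF against CI (0.11) and DEX against CI (0.21). The second brightest probe set, an alternative chosen after seeing the data, was tested for 25 of the genes. It gave counts of higher and lower genes of 0 and 5 in CI, 4 and 0 in TNF, 3 and 4 in DEX, 10 and 0 in TNF against CI, 5 and 2 in DEX against CI, and 8 and 1 in TNF against DEX. Its sign was turned for Ctsf (CI 0.05, DEX 0.13, TNF against CI -0.16, TNF against DEX -0.25), Ctsl (DEX -0.03, TNF against CI -0.05), Gla (DEX against CI 0.11), Man2b1 (CI 0.03, TNF against CI -0.05), Neu1 (CI 0.07, TNF against CI -0.05, DEX against CI -0.06), Smpd1 (TNF against DEX 0.00), Scarb2 (CI -0.27, TNF against CI 0.57, DEX against CI 0.67) and Fuca1 (TNF 0.00). Outside the 40 genes it was turned for Nagpa (CI 0.04), Sort1 (CI 0.02), Wipi1 (TNF -0.09, DEX -0.08) and Fnip1 (DEX -0.04). The cause was not tested. CI rests on 2 arrays, and genes near background are limited by their signal.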
